A study of Homo sapiens with 4 samples.

Results

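The 9 genes described here make, move or sense lactate, and they were chosen by name: LDHA, LDHB, LDHC, LDHD, SLC16A1, SLC16A3, SLC16A7, BSG and HCAR1. RefSeq lists 19974 protein-coding genes on the autosomes and chromosome X of GRCh38.p14, of which they are 9. Around them, every peak record of H3K9la (histone H3 lactylated at lysine 9) that overlapped the gene or lay within 20 kb of it was collected, which gave 41 of 56875 records in the sg3 list and 44 of 40332 records in the V2 list. The cells were KYSE30, an established line of oesophageal squamous cell carcinoma grown in DMEM with fetal bovine serum, and they were profiled by ChIP-seq with an anti-H3K9la antibody. The labels name 2 arms, sg3 and V2, each with a ChIP library and an input library from the same cell line. They do not say what sg3 and V2 stand for, and the deposited V2 list stands under the input sample of that arm. The series title presents SIRT3 as an eraser of this mark. Each arm has 1 peak list and no replicate, so every difference below compares 2 libraries and carries no p-value.

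Lactate is made from pyruvate by lactate dehydrogenase, a tetramer of subunits encoded by LDHA and LDHB. The LDHA subunit favours lactate production, the LDHB subunit favours its use, LDHC is the subunit of the testis, and LDHD is a mitochondrial enzyme that oxidises D-lactate. Monocarboxylate transporters carry lactate with protons across the plasma membrane: SLC16A1 encodes MCT1, SLC16A7 encodes the high-affinity MCT2, and SLC16A3 encodes MCT4, the exporter of glycolytic cells. BSG encodes basigin, the chaperone that brings MCT1 and MCT4 to the cell surface, and HCAR1 encodes a G protein-coupled receptor for lactate. Lactyl groups on histones derive from the lactate pool, which is why these genes are of interest for a lactylation map.

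A selection of promoter sequences, from LDHA, SLC16A3 and BSG with an H3K9la record near a start and from 2 dehydrogenase genes without one, is printed to show what lay beneath or beside the records. Each runs 5′ to 3′ on the strand of its gene, from 250 bases before to 50 bases after a transcription start, and comes from RefSeq on GRCh38.p14. Capitals mark ACGTG or GCGTG on either strand, the core letters of the hypoxia response element. Promoter windows were listed for 6 of the 9 members, and none was printed for LDHD, SLC16A1 and HCAR1.
LDHA first start, chr11:18394313-18394612, plus strand: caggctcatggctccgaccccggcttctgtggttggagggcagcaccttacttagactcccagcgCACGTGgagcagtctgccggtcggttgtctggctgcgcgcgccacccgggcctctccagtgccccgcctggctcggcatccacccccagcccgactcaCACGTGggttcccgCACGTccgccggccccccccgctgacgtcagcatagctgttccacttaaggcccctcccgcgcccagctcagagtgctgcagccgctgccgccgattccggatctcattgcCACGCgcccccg
LDHA second start, chr11:18396101-18396400, plus strand: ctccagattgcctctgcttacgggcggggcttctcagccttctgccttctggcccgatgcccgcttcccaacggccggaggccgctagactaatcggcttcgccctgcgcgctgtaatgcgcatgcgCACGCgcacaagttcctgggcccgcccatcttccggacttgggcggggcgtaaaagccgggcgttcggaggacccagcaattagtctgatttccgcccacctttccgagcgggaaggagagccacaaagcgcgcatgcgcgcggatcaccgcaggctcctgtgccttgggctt
SLC16A3 first listed start, chr17:82228185-82228484, plus strand: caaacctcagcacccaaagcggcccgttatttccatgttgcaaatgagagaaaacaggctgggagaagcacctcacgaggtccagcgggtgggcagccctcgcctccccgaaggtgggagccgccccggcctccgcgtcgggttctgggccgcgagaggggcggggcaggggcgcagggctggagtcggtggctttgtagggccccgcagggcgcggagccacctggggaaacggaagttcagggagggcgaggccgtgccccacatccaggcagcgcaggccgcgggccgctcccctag
SLC16A3 second listed start, chr17:82228792-82229091, plus strand: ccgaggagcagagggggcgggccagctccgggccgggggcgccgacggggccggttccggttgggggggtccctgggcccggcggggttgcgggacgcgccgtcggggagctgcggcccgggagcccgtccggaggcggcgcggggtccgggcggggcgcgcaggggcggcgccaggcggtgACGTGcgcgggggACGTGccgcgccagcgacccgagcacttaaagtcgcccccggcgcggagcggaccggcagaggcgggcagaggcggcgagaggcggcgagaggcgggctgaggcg
BSG second start, chr19:572346-572645, plus strand: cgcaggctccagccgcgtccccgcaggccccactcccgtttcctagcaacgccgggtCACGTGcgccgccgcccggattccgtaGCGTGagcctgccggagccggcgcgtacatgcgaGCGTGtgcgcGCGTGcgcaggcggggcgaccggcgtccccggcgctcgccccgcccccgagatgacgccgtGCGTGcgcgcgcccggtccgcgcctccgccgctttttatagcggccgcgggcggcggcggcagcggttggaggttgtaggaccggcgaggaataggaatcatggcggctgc
LDHB, chr12:21657793-21658092, minus strand: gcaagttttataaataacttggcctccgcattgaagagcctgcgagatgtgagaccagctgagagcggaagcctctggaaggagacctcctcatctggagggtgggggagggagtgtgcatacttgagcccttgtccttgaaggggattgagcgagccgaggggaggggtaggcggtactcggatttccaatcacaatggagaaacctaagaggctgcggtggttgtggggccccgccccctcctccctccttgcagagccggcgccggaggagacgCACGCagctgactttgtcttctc
LDHC, chr11:18412068-18412367, plus strand: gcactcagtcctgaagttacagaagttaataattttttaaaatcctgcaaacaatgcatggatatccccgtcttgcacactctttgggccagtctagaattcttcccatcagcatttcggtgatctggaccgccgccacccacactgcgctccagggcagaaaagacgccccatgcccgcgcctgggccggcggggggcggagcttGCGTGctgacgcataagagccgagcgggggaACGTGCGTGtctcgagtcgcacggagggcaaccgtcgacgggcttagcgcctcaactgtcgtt

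The records covered these windows to very different extents. The 2 printed windows of SLC16A3, of the 5 listed for it, lay wholly inside an sg3 record, while V2 records covered 300 bases of the first and 148 bases of the second. Of the 3 SLC16A3 windows not printed, sg3 records covered 121 bases of the third, 0 of the fourth and 285 of the fifth, and V2 records covered 0 bases of each. In the first LDHA window the records covered 53 bases in sg3 and 8 bases in V2, all at the downstream edge. The second BSG window was covered by neither list, since the record there began 112 bases past the start in sg3 and 110 bases past it in V2. The LDHB and LDHC windows held no record. At the first LDHA start and the second BSG start the nearest records thus lay downstream, apart from 3 bases of the sg3 record at LDHA. At the second LDHA start the nearest records ended before it.

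The letters of the promoters also differed. The first LDHA window held CACGTG, the E-box, at 2 places, and the second BSG window held it at 1 place, against 7.27% of 34961 promoter windows with any match. Each CACGTG contains ACGTG on both strands at overlapping positions, so the first LDHA window counted 5 matches of ACGTG, which 21.4% of all windows hold. The second SLC16A3 window had 2 matches of ACGTG and 3 of GGGCGG, the GC box, which 45.0% of windows hold. Over the 13 listed windows of members, ACGTG occurred in 4, GCGTG in 7 (36.6% of all windows), GGGCGG in 7, CCAAT in 1 (34.6%), TATAAA in 2 (11.5%) and the AP-1 letters TGANTCA in 0 (7.68%). LDHC, without a record at its start, held ACGTG as well, at 1 place. GC content was 82.7% in the second SLC16A3 window, 75.3% in the second BSG window, 70.0% in the first LDHA window, 59.0% in the LDHB window and 58.0% in the LDHC window, against a median of 58.7% over all windows. In the second LDHA window it was 65.0%, and in the first BSG window 56.7%. The other SLC16A3 windows had 70.0%, 66.0%, 65.3% and 64.0%. The SLC16A7 windows, without a record, had 62.7% and 38.0%. A match is a run of letters and not a bound site.

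H3K9la records were found near most of the lactate genes, and their amount ranged from none to most of the surrounding sequence. In the sg3 list 7 of the 9 members had a record within 20 kb, where 68.8% of all protein-coding genes did, and in the V2 list 6 did, where 51.9% of all genes did. The 6 members of the V2 list also had an sg3 record (51.3% of all genes had both). LDHD was the 1 member with an sg3 record and no V2 record (17.5%), no member had a V2 record alone (0.631%), and LDHB and SLC16A7 had none in either list (30.6%). LDHC counted in sg3 only through records at the LDHA start, the nearest 16483 bases away. In a window of 5 kb, 5 members had an sg3 record (11863 of all genes) and 6 a V2 record (8356). LDHC then had V2 records alone, as 129 of all genes did. At gene starts, LDHA, SLC16A1, SLC16A3, BSG and HCAR1 had a record within 1 kb in both lists, which is 5 of 9 members in both lists (28.3% of all genes), in sg3 (47.2%) and in V2 (28.7%). For SLC16A1, LDHD and HCAR1 either end of the gene was searched in place of a listed start. No member had a record at its start in 1 list alone, where 18.9% of all genes had one in sg3 alone and 0.441% in V2 alone. SLC16A1 is the exception to this under stricter rules, with a start record in sg3 alone at a -log10 q of at least 10 or with a start window of 0.25 kb.

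The records were concentrated in the windows of 2 members. Those of HCAR1 and SLC16A3 together held 29 of the 41 sg3 records and 34 of the 44 V2 records. The median member had 2 records in each list, against medians of 2 in sg3 and 1 in V2 over all protein-coding genes. By the share of the window that records covered, the order was HCAR1, SLC16A3, LDHA, SLC16A1, BSG, LDHC and LDHD in sg3. In V2 it was HCAR1, SLC16A3, LDHA, LDHC, SLC16A1 and BSG. With 1 library per arm, places in this order carry no error. The medians over all protein-coding genes were 1.15% of the window in sg3 and 0.237% in V2. The plot of records and coverage by gene shows this order.

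**Figure D1:**
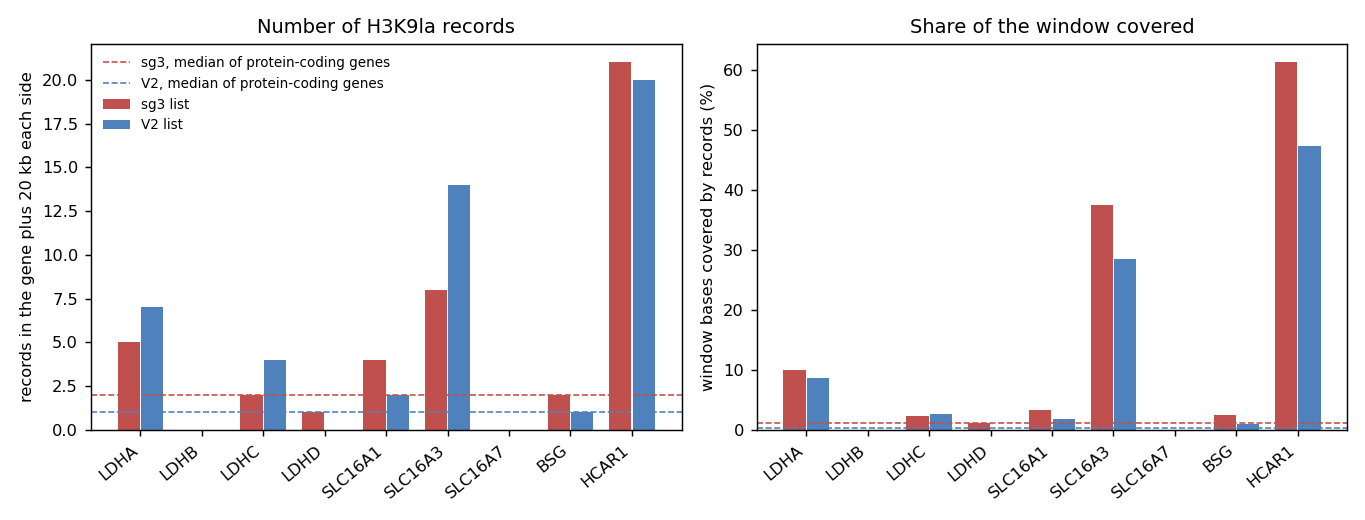
Number of H3K9la records (left axis panel, count) and share of the window covered by them (right axis panel, %) for each lactate gene with 20 kb on each side, as 1 bar per peak list, sg3 left of V2. Dashed lines are the medians over all protein-coding genes, and HCAR1 with 61.3% in sg3 and 47.4% in V2 stands highest, while LDHB and SLC16A7 are at 0.

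Among the enzymes of lactate production, LDHA (chromosome 11, 18394563 to 18408425) carried a moderate mark at its first start in both lists. The sg3 record there ran from 18394560 to 18395835 at 5.34-fold enrichment and 22.02 in -log10 q. The V2 record ran from 18394605 to 18395372 with 5.75 and 14.1, inside the sg3 record. Fold enrichment, the authors' ratio of ChIP signal over background where a record peaks, and the -log10 q rank records within 1 list only. The summits of these records lay 316 bases past the start in sg3 and 320 bases past it in V2, so the lists placed them within a few bases of each other. A further record lay before the gene, with a gap of 694 bases in sg3 (fold enrichment 4.47) and 635 bases in V2 (6.12), so it was the weaker of the pair in sg3 and the stronger in V2. The second LDHA start had no record across it, the nearest ending 516 bases before it in sg3 and 979 bases before it in V2.

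Upstream of LDHA the lists were less alike. Both had a record about 9 kb before the start, from 18384559 to 18386760 in sg3 with a fold enrichment of 3.88 and from 18384592 to 18386022 in V2 with 4.10. Beyond it, sg3 alone had records from 18382216 to 18382620 (2.96) and from 18382888 to 18383821 (5.87). Between it and the gene, V2 alone had records from 18387745 to 18388406 (2.57), over the microRNA gene MIR3159, and from 18389058 to 18389469 (4.72). LDHA thus had 5 records in sg3 and 7 in V2, yet more covered bases in sg3, with 5343 bases in sg3 against 4626 bases in V2. As a share of the window these were 9.92% in sg3 and 8.59% in V2, and 12.7% of all genes in sg3 and 7.20% in V2 were covered as much or more.

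LDHC, the next gene on the chromosome (18412318 to 18452063), had no record at its start in either list. In its body 2 records were called in V2 alone, from 18419858 to 18420216 at 4.95-fold enrichment and 7.25 in -log10 q, and from 18421526 to 18421911 with 3.66 and 3.41. They also lay within 20 kb of LDHA and were the 2 V2 records of LDHA past that gene. The remaining records of LDHC, 2 in each list, were those at the LDHA start. LDHC was the 1 member with more covered bases in V2 than in sg3, with 1802 bases in sg3 and 2121 in V2, as 3.07% of all genes had. At a -log10 q of at least 10 its V2 records in the body were no longer counted. None of the 3 testis markers looked up, DDX4, PRM1 and TNP1, had a record at its start.

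LDHB (chromosome 12, 21635342 to 21657842) stood apart from LDHA by having no record near it. The nearest record lay 133030 bases from the gene in sg3 and 196932 bases in V2. LDHD (chromosome 16, 75111864 to 75116780) had 1 weak sg3 record 13241 bases away, from 75098081 to 75098623, at 3.62-fold enrichment and 4.06 in -log10 q. That record lay in the body of ZNRF1, a ubiquitin ligase gene, and the nearest V2 record was 47450 bases from LDHD. Of the 4 dehydrogenase genes, LDHA was therefore the only one with a record at a start in either list.

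**Figure D2:**
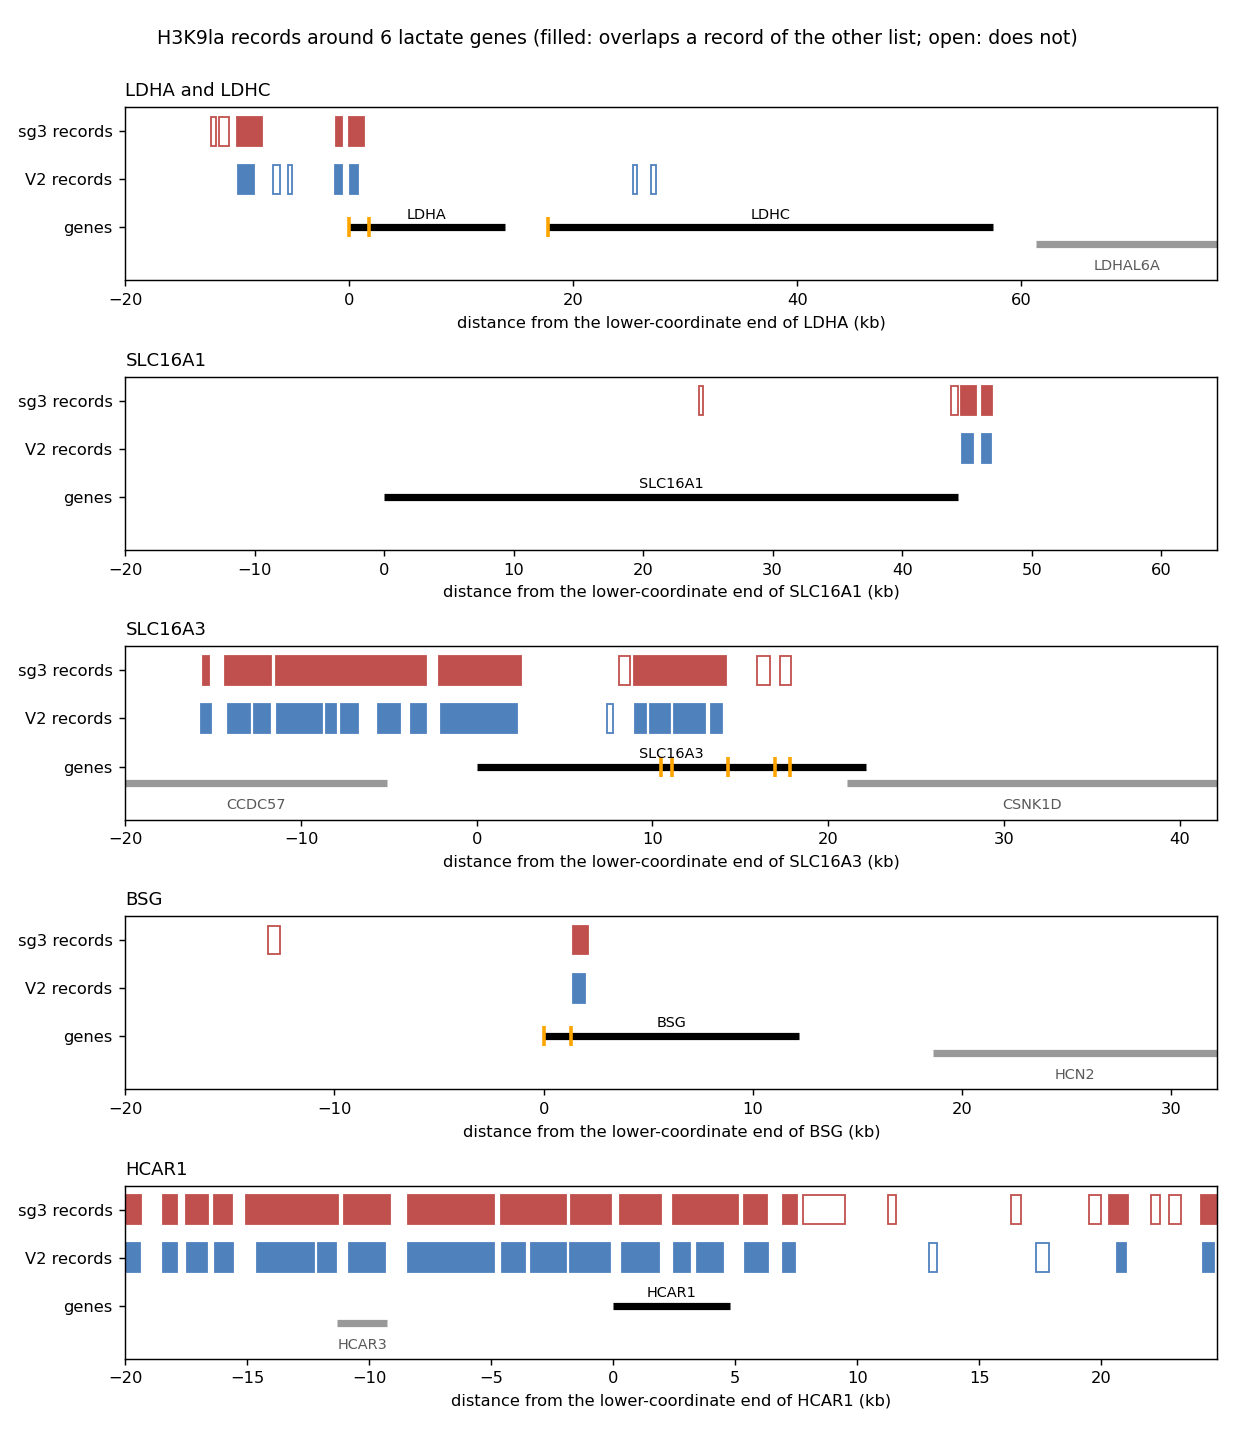
H3K9la records (boxes, sg3 above V2) around LDHA with LDHC, SLC16A1, SLC16A3, BSG and HCAR1, plotted by distance in kb from the lower-coordinate end of the first gene. Filled boxes overlap a record of the other list, open boxes do not, black and grey bars are member and neighbouring protein-coding genes, and orange ticks are starts listed by RefSeq. The boxes are dense around HCAR1 and on the left of SLC16A3 and sparse around BSG, with 2 in sg3 and 1 in V2.

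Among the transporters, SLC16A3 was heavily marked, SLC16A1 was marked at 1 end, and SLC16A7 was not marked. SLC16A3 (chromosome 17, 82217934 to 82240086) had 8 records in sg3 and 14 in V2, covering 37.6% of its window in sg3 and 28.6% in V2. That much or more was covered at 274 protein-coding genes in sg3 (1.37%) and at 219 in V2 (1.10%). The lower V2 coverage went with a larger V2 count, as 3 sg3 records overlapped 11 V2 records.

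The sg3 record from 82226896 to 82232102 spanned the first 2 of the 5 listed starts of SLC16A3, with a fold enrichment of 6.13 and its summit at 82228732, 297 bases past the first. It overlapped 4 V2 records, of which the one from 82227808 to 82228939 had the highest fold enrichment, 4.44, and a summit at 82228697. In both lists the summit therefore fell between the first and second starts. Further along the gene, sg3 alone had records from 82233902 to 82234595 (2.81) and from 82235186 to 82235808 (4.08). The later starts lay beside them, the fourth 287 bases from an sg3 record and 3029 bases from a V2 record, and the fifth inside an sg3 record and 3904 bases from a V2 record.

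The strongest records of the SLC16A3 window lay before the gene rather than in it. In sg3 they ran from 82203611 to 82206229 at 15.8-fold enrichment, at rank 201 of the list by -log10 q, and from 82206495 to 82215072 with 14.9. In V2 the strongest ran from 82206541 to 82209105 with 12.9, at rank 647. These records overlapped CCDC57, a coiled-coil protein gene, and were nearer to it than to SLC16A3. The record at the lower-coordinate end of SLC16A3 ran from 82215816 to 82220459 in sg3 (9.58) and from 82215905 to 82220202 in V2 (5.29). Which gene the block before SLC16A3 belongs to was not tested.

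SLC16A1 (chromosome 1, 112911847 to 112956196) had 4 records in sg3 and 2 in V2, with 3 of the sg3 records and both V2 records at or beyond its higher-coordinate end. Just past that end lay the record from 112956392 to 112957514 in sg3, at 5.71-fold enrichment and 32.9 in -log10 q, and the record from 112956483 to 112957288 in V2, with 3.36 and 9.51. A second record lay farther out, from 112958046 to 112958771 in sg3 (3.83) and from 112957981 to 112958723 in V2 (5.49). Within the sg3 list the record nearer to SLC16A1 was the stronger of the 2, and within the V2 list the farther one was. All 4 of these records overlapped SLC16A1-AS1, a noncoding gene that begins beside this end, so they cannot be assigned to SLC16A1 alone. Inside SLC16A1 sg3 alone had records from 112955615 to 112956131 (3.54) and from 112936123 to 112936485 (4.39).

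SLC16A7 (chromosome 12, 59596029 to 59789841) had the longest window, 233813 bases, and no record in it. The nearest record lay 493034 bases from the gene in sg3 and 493313 bases in V2. BSG (chromosome 19, 571283 to 583493) had 1 record in both lists, just past its second start, from 572708 to 573407 in sg3 at 4.48-fold enrichment and 20.1 in -log10 q, and from 572706 to 573252 in V2 with 3.36 and 11.2. The other sg3 record of BSG, from 558129 to 558700 (3.02), was nearest to GZMM, a granzyme gene. The genes of basigin and MCT4 thus each had a called start in both lists, while the window of MCT2 was empty.

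HCAR1, the lactate receptor gene (chromosome 12, 122726076 to 122730844), had the densest mark of the 9 members. Its window held 21 records in sg3 and 20 in V2, which covered 61.3% of the bases in sg3 and 47.4% in V2. That much or more was covered at 46 of 19974 protein-coding genes in sg3 (0.230%) and at 30 in V2 (0.150%). This density was not particular to HCAR1. The overlapping window of HCAR3 was covered more, at 77.7% in sg3 and 65.5% in V2, and that of HCAR2 about as much, at 60.2% and 48.6%. Of the records in the HCAR1 window, 8 of 21 in sg3 and 9 of 20 in V2 were nearest to HCAR1. The gene itself was overlapped by records from 122726373 to 122728021 (7.15) and from 122728520 to 122731202 (8.45) in sg3. In V2 it was overlapped by records from 122726436 to 122727958 (12.4), from 122728561 to 122729203 (8.56) and from 122729507 to 122730580 (4.24). The body of HCAR1 was thus called in both lists at nearly the same places, with a V2 gap inside the second sg3 record.

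The mark around HCAR1 was stronger on its lower-coordinate side, towards the related receptor genes HCAR3 and HCAR2. On that side sg3 had 9 records with fold enrichments of 4.95 to 20.01 (median 9.23), and V2 had 11 records of 5.40 to 16.1 (median 8.65). On the higher-coordinate side sg3 had 10 records of 2.34 to 7.33 (median 3.93), and V2 had 6 records of 3.52 to 7.28 (median 4.49). Each record of the lower side overlapped one of the other list, while on the higher side 4 of 10 sg3 records and 4 of 6 V2 records did. The strongest sg3 record by fold enrichment, from 122711018 to 122714784 with 20.01, reached HCAR3. In V2 the strongest ran from 122722718 to 122724144 with 16.1, and its gap to HCAR1 was 1932 bases. HCAR2 and HCAR3 are near-identical copies, so the records over HCAR3 are uncertain: how reads that align to both were handled is unknown here. By the 20 kb rule the farthest record counted had a gap of 19361 bases to HCAR1 in sg3 (fold enrichment 4.95) and 19390 bases in V2 (6.37). The nearest record not counted was also next to HCAR1, at 20799 bases in sg3 (7.87) and 20827 bases in V2 (5.73). It lay on the higher-coordinate side in both lists. Records also went on past the window on the lower-coordinate side, beyond HCAR2, with fold enrichments of 9.97 in sg3 and 14.3 in V2.

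**Figure D3:**
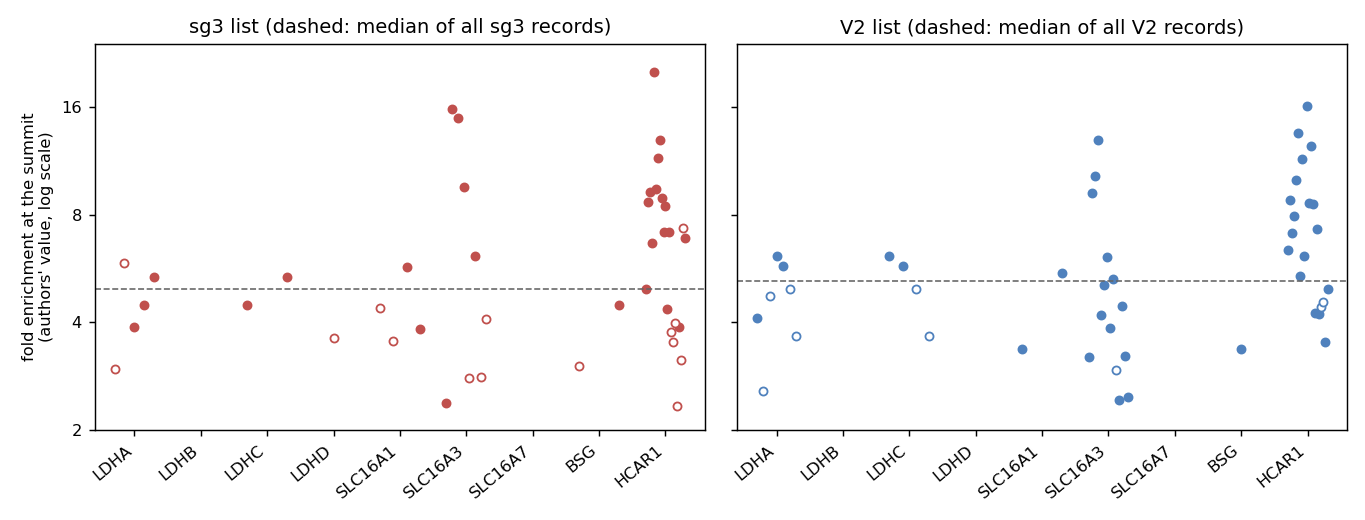
Fold enrichment at the summit (authors' value, log axis) of each record within 20 kb of each lactate gene, with the sg3 list on the left and the V2 list on the right. Filled points overlap a record of the other list and open points do not, and points within a gene run by position. The records above 8 all lie in the windows of SLC16A3 and HCAR1 in both panels.

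The stronger records were mostly those in the windows of HCAR1 and SLC16A3. Most records of the other members lay below the median of their list. Of the 41 sg3 records 20 were above the list's median fold enrichment of 4.97, and of the 44 V2 records 22 were above that list's median of 5.22. Among the strongest 5% of a list by -log10 q were 8 sg3 records and 9 V2 records. All of these lay in the windows of SLC16A3 (4 in each list) and HCAR1 (4 in sg3 and 5 in V2). Most of them in each list were nearer to CCDC57, HCAR3 or HCAR2 than to the member itself. Without HCAR1 and SLC16A3 the records had fold enrichments of 2.96 to 5.87 in sg3 and 2.57 to 6.12 in V2. Their medians were 4.14 in sg3 and 4.41 in V2. Above the list median were 3 of these 12 sg3 records and 3 of these 10 V2 records.

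Overlap between the lists was set beside that of the whole lists. Of the 41 sg3 records 26 overlapped a V2 record, which is 63.4% (exact 95% interval 46.9 to 77.9%), against 52.4% over the whole sg3 list. Of the 44 V2 records 37 overlapped an sg3 record, which is 84.1% (69.9 to 93.4%), against 86.3% over the whole V2 list. Both whole-list values lay inside these intervals, which cover counting error only and take neighbouring records as independent. Most records came from the windows of HCAR1 and SLC16A3, so the intervals cannot show likeness. Without these windows 6 of 12 sg3 records and 6 of 10 V2 records overlapped one of the other list. The 7 V2 records without a partner had -log10 q values of 3.41 to 9.87, and the 15 sg3 records without one had 3.82 to 29.4. At 10 or more there were 6 such sg3 records and no V2 record, out of 30 records of that strength in each list. The strongest of the 6, from 122748838 to 122749360 with a fold enrichment of 7.33, lay past the higher-coordinate end of HCAR1 and nearest to DENR, a translation factor gene.

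In the lists at full length the lactate genes had about as many records in sg3 as in V2. Their median widths were similar, 764 bases in sg3 and 787 bases in V2. The sg3 count was 0.932 times the V2 count, whereas over the whole lists it was 1.41 times. This ratio rests on SLC16A3, since without it there were 33 records in sg3 and 30 in V2. The bases of these records summed to 63108 in sg3 and 47505 in V2, a ratio of 1.33, against 1.75 over the whole lists. LDHA, LDHC and SLC16A3 had more records in V2 than in sg3, which is 3 of 9 members where 6.59% of all genes did, and LDHA and LDHC share records. LDHD, SLC16A1, BSG and HCAR1 had more in sg3, which is 4 of 9 where 49.7% of all genes did. More bases were covered in sg3 at 6 of the 9 members, where 66.3% of all genes had more. At a -log10 q of at least 10 the counts were 30 in each list. In lists of equal length they were 32 in sg3 and 44 in V2, so the near equality depends on the longer sg3 list.

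There were 37 overlapping pairs, and in 33 of them the sg3 record was the wider, against 81.6% of pairs over the whole lists. Of the 26 shared sg3 records 6 overlapped several V2 records, 17 in all, against 13.3% of shared sg3 records in the whole list, and these 6 lay at SLC16A3 and HCAR1. A record that spans several others is the wider in each of its pairs almost by construction, so 17 of the 33 come from these 6 records. In the 20 pairs with a single V2 partner sg3 was the wider in 16 (80.0%), against 74.9% of all such pairs, and the median width ratio of sg3 to V2 was 1.08, against 1.20 over all such pairs. In these pairs the summits lay within 100 bases of each other in 12 of 20 (60.0%), where 74.3% of all single-partner pairs did, with a median distance of 53.5 bases against 46 bases.

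**Figure D4:**
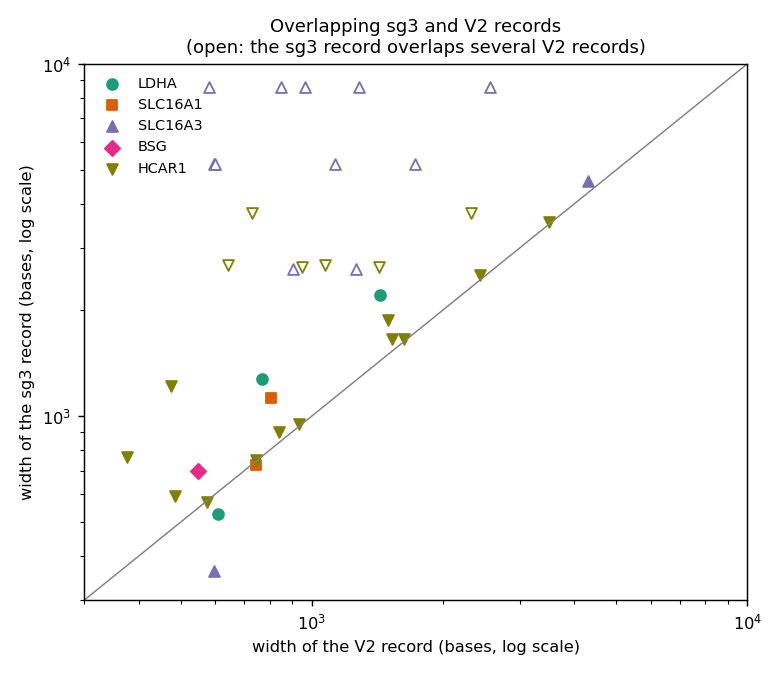
Width in bases of the sg3 record (vertical, log axis) against the V2 record (horizontal, log axis) for the 37 overlapping pairs around lactate genes, by gene. The line marks equal widths, open symbols are pairs in which the sg3 record overlaps several V2 records, and 33 pairs lie above the line.

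Other genes of lactate and pyruvate handling were looked up by a list of 31 names. At their starts, or at either end for genes without a listed start, 14 had an sg3 record and 10 a V2 record. There were 10 in both, 4 in sg3 alone, none in V2 alone and 17 in neither. Within 20 kb 20 had an sg3 record and 15 a V2 record. These shares were close to those of all protein-coding genes given above. The 4 genes marked in sg3 alone at their start were SUCLG2 (fold enrichment 9.17) and SUCLG1 (4.51), subunits of succinyl-CoA ligase, GLO1 (5.59), which detoxifies methylglyoxal, and PDK1 (3.97), a kinase that restrains pyruvate entry into mitochondria. SLC16A8, a transporter gene of the MCT family, had a V2 record and no sg3 record within 20 kb, a gene picked out here with its values known.

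The genes marked in both lists at a start, or at a searched end, included relatives of the receptor and genes of glucose and pyruvate handling. HCAR3 and HCAR2 have no listed start, so either end was searched and their records are not shown to lie at a start. For HCAR3 the sg3 record with the highest -log10 q lay at the lower-coordinate end, with a fold enrichment of 20.01. The stronger V2 record that overlaps it had 13.5. The one chosen in V2 lay beyond the higher-coordinate end, with 11.5. HCAR2 had 9.97 in sg3 and 14.3 in V2, beyond its lower-coordinate end. The reservation on near-identical copies given above holds for both genes. ACSS2, an acyl-CoA synthetase gene, had 6.65 in sg3 and 5.61 in V2. PDHA1, a subunit of pyruvate dehydrogenase, had 9.77 in sg3 and 5.47 in V2, and SLC2A1, the glucose transporter gene, had 4.45 in sg3 and 2.91 in V2. The 20 kb window of SLC2A1 held 16 records in sg3 and 15 in V2, covering 38.2% of it in sg3 and 21.9% in V2. MPC2, a subunit of the mitochondrial pyruvate carrier, had records that did not overlap, with 5.76 in sg3 and 3.46 in V2, and no record lay within 20 kb of its partner MPC1. HIF1A, the hypoxia-inducible factor gene, had 4.13 in sg3 and 4.19 in V2, and AARS1, the alanyl-tRNA synthetase gene, had 5.88 in sg3 and 4.66 in V2. LDHAL6A, a dehydrogenase-like gene beside LDHC, had no record within 20 kb in either list.

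Markers were looked up as a check of the cell type. All 8 squamous genes had an sg3 record at their start and 5 had a V2 record, while TP63, KRT5 and IVL had none there in V2. Of 24 markers of other cell types 5 had one in sg3 and 3 in V2, which were COL1A1, COL1A2 and SYT1. Gene expression was not measured by these lists.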

How the data were processed

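H3K9la ChIP-seq of KYSE30 cells was deposited as 2 narrowPeak lists, 1 for each arm, with no replicates. Per the submitters' processing notes the build was hg38 and the tools included Bowtie2 2.5.1, MACS2 2.2.9.1, SAMtools 1.18, Trim Galore 0.6.10 and FastQC 0.12.1. Fold enrichment is a ratio deposited by the authors, as are the -log10 p and -log10 q of each record. The smallest -log10 q was 2.02 in sg3 and 2.009 in V2. The integer score deposited by the authors was not used, and summit offsets were used as positions. Read depth, the command line and the control library of each list are not stated in what was used here, so the precision that depth gives is unknown. IgG libraries were not analysed here.

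Positions were compared in Python 3.11.15 with pandas 2.3.3. No records of 1 list overlapped each other. An overlap of 1 base or more made records of the lists shared. Gene positions came from RefSeq GRCh38.p14, the same build as hg38. Starts came from the RefSeq promoter table, which lists 15812 of the 19974 genes, and either end was searched for the rest. A start was marked when a record lay within 1 kb of it. Percentages of all genes used the same rules. Intervals are exact Clopper-Pearson 95% intervals. With 1 list per arm no test was made. The counting was tested on simulated data.

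The members and the lists of other genes were chosen with earlier results of these data known. The text names all members and the genes that their records overlap. From the list of other genes it names those marked at the start in 1 list alone and up to 8 marked in both, by -log10 q in sg3. Alternatives changed the window (0, 5 or 50 kb), the -log10 q (5 or 10), list length, merging within 1 kb, the overlap rule, and the start window (0.25 or 2.5 kb).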

Additional observations from a re-analysis of the deposited data

How the results depend on the processing

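Across 93 comparisons of 13 results with an alternative, 71 stayed within 1.5 times of the reported count (for the ratio of covered bases, within 1.1 times) and 22 moved further, none in the other direction. Record counts followed the window by construction. With windows of 0, 5 and 50 kb there were 11, 21 and 69 sg3 records and 13, 24 and 75 V2 records, of which 5, 6 and 25 in sg3 and 3, 3 and 11 in V2 had no partner. Merging within 1 kb left 14 sg3 and 16 V2 records, with 6 sg3 records without a partner. The sg3 records without a partner numbered 8 at a -log10 q of at least 10, 7 in lists of equal length and 8 when a partner within 1 kb counted. The first of these cut both lists, so V2 partners below 10 were lost, whereas the 6 given in the Results kept the full V2 list. The V2 records without a partner numbered 0 at that -log10 q and 4 with a partner within 1 kb. Over all protein-coding genes, 6738 had a V2 record in a window of 0 kb, and 318 had a V2 record alone in lists of equal length.

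The ratio of covered bases stayed between 1.23 and 1.45. With windows of 0, 5 and 50 kb, 5, 5 and 7 members had an sg3 record and 5, 6 and 7 a V2 record. LDHD was the member lost in sg3 at a -log10 q of at least 5, which left 6. At a -log10 q of at least 10, or with a start window of 0.25 kb, 4 members instead of 5 were marked at the start in V2, SLC16A1 being the one lost, while it stayed marked in sg3. No paired analysis was possible because each arm has 1 list. Unknown depth limits any reading of an absent record as an absent mark.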
